A study of Rattus norvegicus with 6 samples.

Results

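Complex I (NADH:ubiquinone oxidoreductase) is the entry point of electrons from NADH into the mitochondrial respiratory chain. Its subunit genes of the nuclear genome were selected as the gene symbols that begin with Nduf, continue with a, b, c, s, v or ab, and end in a number, which leaves out the Ndufaf assembly factors and the pseudogene. This gave 35 genes, carried by 37 rows, of the 28293 genes measured. Of these, 34 had a mean of at least 0.5 FPKM over the 6 samples and were tested, and 1 did not. Ndufb1, Ndufb9 and Ndufa10, which also encode subunits, are not analysed here.

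Myocardial tissue of 3 sham and 3 MI/RI samples from male rats with the WT genotype was compared. In the MI/RI group the left anterior descending coronary artery was tied for 30 min and the heart was taken 6 h after release, and the sham labels carry these times too. Values of single samples are given in the order of replicates 1 to 3. The labels name no agent given to either group, the strain and the age are not given for these samples, and the part of the heart that was sequenced is not stated, so spared muscle may be present beside ischemic muscle. Expression is given in FPKM (fragments per kilobase of gene, scaled to library size), a level per length at which different genes can be compared, and each fold change is MI/RI minus sham on the log2(FPKM + 0.1) scale.

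Complex I has the shape of an L. In the peripheral arm, the N module takes electrons from NADH through a flavin and a chain of iron-sulfur clusters, and the Q module hands them to ubiquinone. The membrane arm pumps protons, and its core subunits are encoded by mitochondrial DNA while accessory subunits from the nucleus surround them. In the heart, complex I feeds the oxidative ATP production of cardiomyocytes and is a known source of reactive oxygen species at reperfusion.

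The samples were not even within the sham group. The summed level of the 35 subunit genes was 5669, 2177 and 2173 FPKM in the sham samples, and 10493, 8785 and 8714 FPKM in the MI/RI samples. Sham replicate 1 thus stood apart from the other sham samples and still lay below every MI/RI sample. It held the highest sham value in 33 of the 34 subunits tested, all but Ndufa3, against 27.8% of all genes tested, and its level was a median of 2.54 times the mean of the other sham samples. The 7 cardiomyocyte markers analysed (Myh6, Tnnt2, Tnni3, Actc1, Myl2, Myl3 and Ryr2) had the same order in their sum, with 11364, 3916 and 3465 FPKM in the sham samples and 33681, 24246 and 23353 FPKM in the MI/RI samples, and sham replicate 1 held the highest sham value in 6 of the 7 markers, all but Ryr2. Because the samples are bulk tissue, fewer cells of a type and less RNA per cell cannot be told apart.

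**Figure D1:**
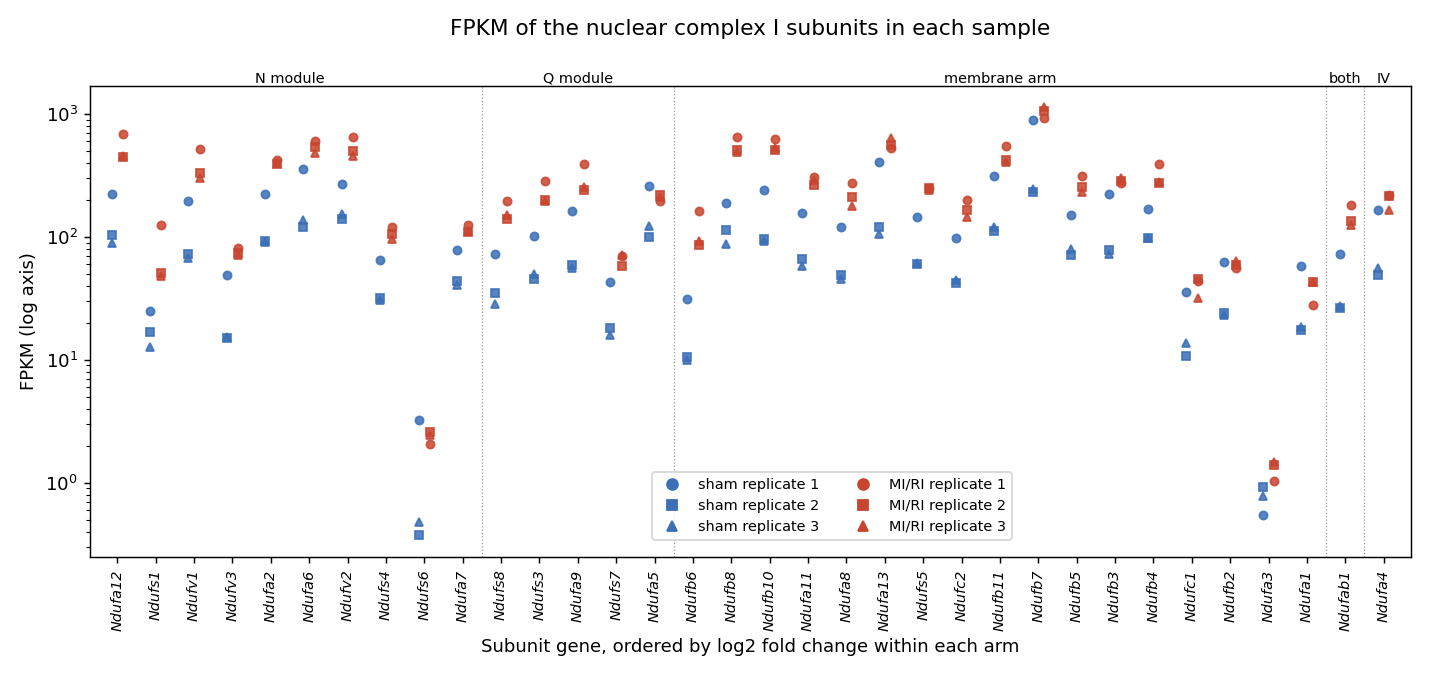
FPKM (vertical log axis) of the 34 subunits tested, grouped by arm, with 1 point per sample (blue, sham; red, MI/RI; the symbol gives the replicate; both, the subunit found in both arms; IV, the subunit assigned to complex IV). Sham replicate 1 lies above the other sham samples in 33 genes, and every MI/RI sample lies above every sham sample in 29.

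Most nuclear subunits of complex I had a higher level in MI/RI tissue than in sham tissue in the deposited scaling. Of the 34 subunits tested, 29 were higher and 0 were lower at an adjusted p under 0.05 (limma, Benjamini-Hochberg over the 10942 genes tested), against 25.5% and 7.36% of all genes tested. No subunit was lower at an unadjusted p under 0.05 either, since all 34 fold changes were above 0. Their median log2 fold change was 1.57, against 0.29 for all genes tested, with a range from 0.49 for Ndufa1 to 2.87 for Ndufb6. Among genes with a mean of at least 5 FPKM, the medians of the subunits and of all genes were 1.58 and 0.66. The distance between the medians was then 0.92, against 1.28 with the filter used here. In 29 subunits every MI/RI sample lay above every sham sample, which held for 37.2% of all genes tested, and in 0 subunits every MI/RI sample lay below every sham sample, which held for 13% of them.

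These counts depend on which sham samples are used and on the scaling. Without sham replicate 1, 33 of the 34 subunits were higher with a median of 2.10, the exception being Ndufa3. Without sham replicate 2 the count was 17, and without sham replicate 3 it was 21. FPKM are shares of a library, and the mRNAs encoded by mitochondrial DNA took 80.1%, 85.1% and 86.2% of each sham library's FPKM and 61.8%, 70.9% and 71.5% of each MI/RI library's. When each sample was rescaled over the other genes, 19 subunits were higher, their median was 0.79 and that of all genes tested was -0.46. The distance between both medians was 1.25, against 1.28 as reported. However, 1 factor per sample moves all its genes nearly alike, so this rescaling could hardly change the distance. Quantile normalization, which can change it, left 12 subunits higher. Their median was then 0.67, against -0.022 for all genes tested, a distance of 0.69. When the values were centred on the cardiomyocyte markers, 0 subunits were higher and 10 were lower, with a median of -0.72 against -2.01 for all genes tested. The share of all genes called is not given for these settings, so their counts cannot be read as particular to the subunits.

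**Figure D2:**
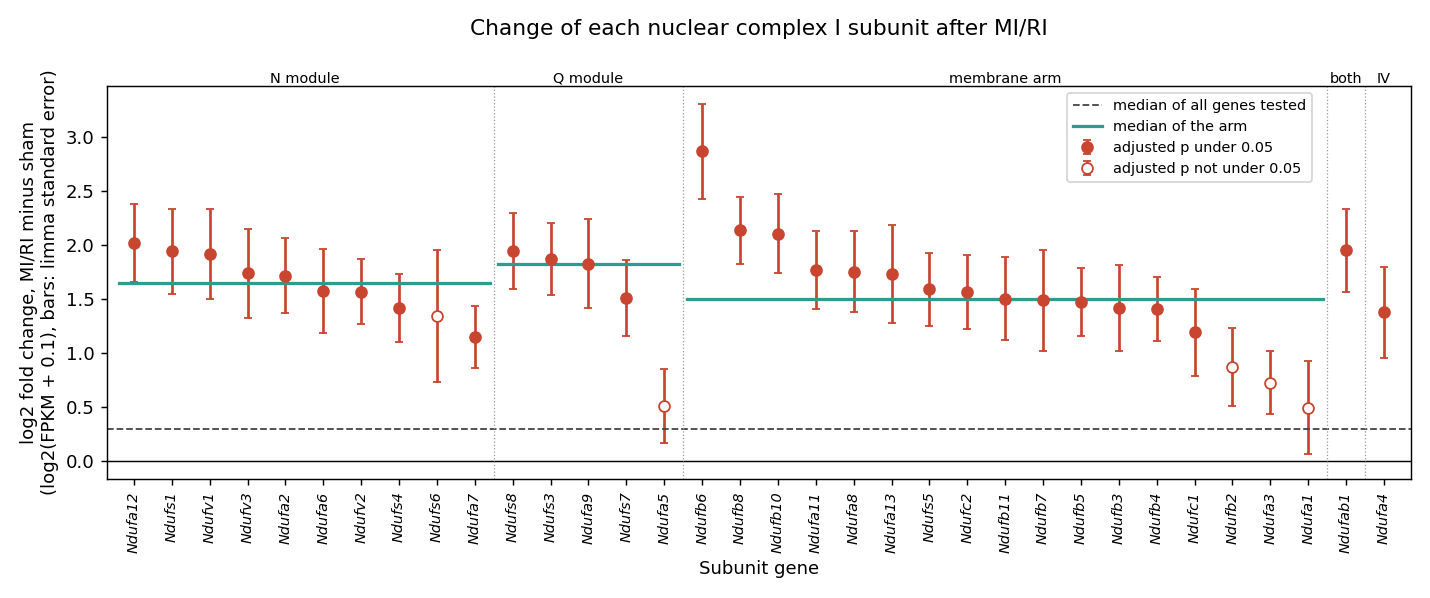
Log2 fold change (MI/RI minus sham, limma) of the 34 subunits tested, ordered within each arm, with bars for the standard error (filled, adjusted p under 0.05; open, not; green line, median of the arm; dashed line, median of all genes tested; both and IV as in the plot of levels). All 34 points lie above 0 in the deposited scaling, from 0.49 to 2.87, while 33 fold changes were below 0 after centring on the cardiomyocyte markers, 2 after rescaling over the genes other than mitochondrial mRNAs and 3 after quantile normalization.

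In the N module, which receives the electrons, 9 of 10 subunits were higher in the deposited scaling, against 25.5% of all genes tested. The median log2 fold change of the module was 1.65, and -0.65 after centring on the cardiomyocyte markers. Ndufv1 binds NADH and the flavin. It measured 197, 73.0 and 66.9 FPKM in the sham samples and 518, 334 and 301 FPKM in the MI/RI samples, without overlap of the groups (log2 fold change 1.92, SE 0.41, adjusted p = 0.0087, limma). Ndufv2, which carries an iron-sulfur cluster next to the flavin, measured 267, 139.9 and 154 FPKM in the sham samples and 653, 502 and 459 FPKM in the MI/RI samples (log2 fold change 1.57, SE 0.30, adjusted p = 0.0060, limma). Both genes were lowest in sham replicates 2 and 3 and highest in MI/RI replicate 1.

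Ndufs1 is the largest subunit of the complex and holds further iron-sulfur clusters of the N module. Its level was 25.2, 16.9 and 12.8 FPKM in the sham samples and 126, 51.4 and 48.3 FPKM in the MI/RI samples (log2 fold change 1.94, SE 0.39, adjusted p = 0.0072, limma). MI/RI replicate 1 was 2.53 times the mean of the other MI/RI samples for this gene, the highest such ratio of the 34 subunits, whose median ratio was 1.19. All 3 MI/RI samples remained above the sham samples.

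Among the accessory subunits of the N module, Ndufa12 had the largest and Ndufa7 the smallest fold change. Ndufa12, which joins late in assembly, measured 222, 104 and 89.9 FPKM in the sham samples and 684, 451 and 453 FPKM in the MI/RI samples (log2 fold change 2.02, SE 0.36, adjusted p = 0.0047, limma). Ndufa7 measured 78.3, 43.5 and 40.6 FPKM in the sham samples and 126, 109 and 111 FPKM in the MI/RI samples (log2 fold change 1.15, SE 0.29, adjusted p = 0.0146, limma). Neither gene had overlapping groups. Ndufs4, a subunit mutated in Leigh syndrome, was between them with a log2 fold change of 1.41, as were Ndufv3 (1.74) and Ndufa2 (1.71), and all 3 passed the test.

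Ndufs6, a small zinc-binding subunit between the N and Q modules, was the only N module gene that did not pass. It measured 3.24, 0.374 and 0.475 FPKM in the sham samples and 2.08, 2.57 and 2.45 FPKM in the MI/RI samples (log2 fold change 1.34, adjusted p = 0.119, limma). Sham replicate 1 was above all MI/RI samples and was 7.63 times the mean of the other sham samples, the highest such ratio of the subunits. Without sham replicate 1, Ndufs6 passed the test, and with a pseudocount of 1 its log2 fold change was 0.71.

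In the Q module, which passes electrons to ubiquinone, 4 of 5 subunits tested were higher as deposited, against 25.5% of all genes tested. The median log2 fold change of the module was 1.83, and -0.47 after centring on the cardiomyocyte markers. Ndufs8, which carries the iron-sulfur clusters that lead into this module, measured 73.3, 34.7 and 28.6 FPKM in the sham samples and 196, 140.1 and 152 FPKM in the MI/RI samples (log2 fold change 1.95, SE 0.35, adjusted p = 0.0048, limma). Ndufs3, a scaffold subunit present from early in assembly, measured 101, 45.6 and 49.8 FPKM in the sham samples and 286, 199.8 and 197 FPKM in the MI/RI samples (log2 fold change 1.87, SE 0.33, adjusted p = 0.0047, limma). Ndufs7, which holds the last cluster of the chain beside the ubiquinone pocket, measured 42.7, 18.2 and 16.1 FPKM in the sham samples and 70.4, 58.3 and 70.7 FPKM in the MI/RI samples (log2 fold change 1.51, SE 0.35, adjusted p = 0.0117, limma). The groups did not overlap for any of these core genes, although Ndufs7 had the smallest fold change of the 6 core subunits tested.

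The accessory subunits of the Q module tested were Ndufa9 and Ndufa5. Ndufa9, which binds NADPH near the ubiquinone pocket, measured 164, 59.1 and 55.5 FPKM in the sham samples and 393, 242 and 254 FPKM in the MI/RI samples (log2 fold change 1.83, SE 0.41, adjusted p = 0.0101, limma). Ndufa5 measured 260.1, 99.5 and 123 FPKM in the sham samples and 197, 219 and 212 FPKM in the MI/RI samples, with a log2 fold change of 0.51 and an adjusted p of 0.279 (limma). For Ndufa5 the 3 MI/RI samples lay close together between the highest and the other sham samples, so the groups overlapped (exact permutation test, two-sided, p = 0.4).

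In the membrane arm 14 of 17 subunits tested were higher in the deposited scaling, against 25.5% of all genes tested. The median log2 fold change of the arm was 1.50, and -0.80 after centring on the cardiomyocyte markers. By the mitochondrially encoded subunit that they surround, 2 of 3 were higher in the ND1 region, 4 of 5 in the ND2 region, 5 of 5 in the ND4 region and 3 of 4 in the ND5 region, with medians of 1.74, 1.57, 1.50 and 1.45. The membrane arm held both the largest and the smallest fold change of all subunits. Ndufb6, of the ND4 region, measured 31.3, 10.5 and 9.92 FPKM in the sham samples and 163, 85.5 and 93.2 FPKM in the MI/RI samples. The means were 17.2 ± 12.2 FPKM for sham and 114 ± 42.9 FPKM for MI/RI (SD, n = 3 each), a ratio of 6.61 (log2 fold change 2.87, SE 0.44, adjusted p = 0.0033, limma). The lowest MI/RI sample was above the highest sham sample, sham replicate 1 included.

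Ndufa1, a small X-linked subunit of the ND2 region needed for assembly of the membrane arm, measured 58.1, 17.5 and 18.5 FPKM in the sham samples and 28.2, 43.3 and 43.2 FPKM in the MI/RI samples. The means were 31.4 ± 23.1 FPKM for sham and 38.3 ± 8.71 FPKM for MI/RI (SD, n = 3 each, log2 fold change 0.49, adjusted p = 0.405, limma). The highest of its 6 values was in sham replicate 1, and its lowest MI/RI value was in MI/RI replicate 1, the sample in which 24 of the 34 subunits, and 58.2% of all genes tested, had their highest MI/RI value. Without sham replicate 1, Ndufa1 and Ndufa5 were both called higher.

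The promoters of Ndufb6 and Ndufa1 are printed here because these genes mark both ends of the range of fold changes (RefSeq, GRCr8, 5′ to 3′ on the strand of the gene, 250 bases before to 50 bases after the annotated start). Capitals mark the letters that matched a searched motif. Ndufb6 lies at chr5:60206103-60206402 on the minus strand, and its 1 match is the NRF1 motif at position -89 from the start. Ndufa1 lies at chrX:121293506-121293805 on the minus strand, and its 3 matches are GABP at -171, the SP1 GC box at -13, both on the opposite strand, and GABP at 6.
Ndufb6: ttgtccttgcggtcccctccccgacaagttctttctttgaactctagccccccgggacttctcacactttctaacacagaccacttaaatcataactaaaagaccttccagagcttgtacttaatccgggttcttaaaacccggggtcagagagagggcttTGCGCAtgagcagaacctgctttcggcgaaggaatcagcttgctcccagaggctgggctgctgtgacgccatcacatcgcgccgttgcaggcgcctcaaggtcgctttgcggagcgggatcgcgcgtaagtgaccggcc
Ndufa1: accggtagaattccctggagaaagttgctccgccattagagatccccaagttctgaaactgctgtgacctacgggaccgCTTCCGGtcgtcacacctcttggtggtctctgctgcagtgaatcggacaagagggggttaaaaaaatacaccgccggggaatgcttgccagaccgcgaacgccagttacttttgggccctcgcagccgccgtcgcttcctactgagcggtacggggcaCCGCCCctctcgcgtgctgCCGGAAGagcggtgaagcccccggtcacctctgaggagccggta

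NRF1 and GABP (also called NRF2) are the transcription factors best known for driving nuclear genes of the respiratory chain, and ERR factors and YY1 act on many of the same genes. Promoters were found for 33 of the 35 subunit genes. The exact letters TGCGCA (NRF1) were in 11 of the 33 promoters (33.3%), against 7.24% of all 33469 promoters of this length. For GABP the letters searched were CCGGAAG, found in 7 of the subunit promoters (21.2%, against 8.75% of all promoters). For ERR they were AAGGTCA, found in 4 of the subunit promoters (12.1%, against 4.61% of all promoters). For YY1 they were AAGATGG, found in 8 of the subunit promoters (24.2%, against 7.01% of all promoters). Of the general promoter elements, the SP1 letters GGGCGG were in 14 (42.4%, against 33.1%) and the TATA box letters TATAAA in 3 (9.09%, against 14.2%). Both strands were searched, no motif contains another, and 28 of the 33 promoters held at least 1 of the motifs. These matches are a description of the letters and say nothing of binding in these samples.

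By the mean over all 6 samples, the subunits with the highest levels were Ndufb7, Ndufa13 and Ndufa6, although Ndufb10 and Ndufb8 had higher means than Ndufa6 within the MI/RI group. Ndufb7, which faces the intermembrane space, measured 903, 234 and 244 FPKM in the sham samples and 937, 1065 and 1141 FPKM in the MI/RI samples (log2 fold change 1.49, SE 0.47, adjusted p = 0.0357, limma). Ndufa13, also known as GRIM-19, measured 405, 120.2 and 105 FPKM in the sham samples and 533, 559 and 636 FPKM in the MI/RI samples (log2 fold change 1.74, SE 0.45, adjusted p = 0.0176, limma). Ndufa6, counted here in the N module, measured 357, 121 and 138 FPKM in the sham samples and 605, 539 and 484 FPKM in the MI/RI samples (log2 fold change 1.58, SE 0.39, adjusted p = 0.0139, limma). The 3 genes passed the test with groups that did not overlap, but sham replicate 1 of Ndufb7 lay just under the lowest MI/RI sample. All 3 calls were lost without sham replicate 2, and also without sham replicate 3. The call of Ndufb7 was lost as well when MI/RI replicate 1, 2 or 3 was left out (adjusted p = 0.0673, 0.0707 and 0.0767, limma).

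Further membrane arm subunits are described for the sizes of their change or for the calls they missed. Ndufb8, of the ND5 region, measured 190.1, 115 and 87.9 FPKM in the sham samples and 653, 509 and 491 FPKM in the MI/RI samples (log2 fold change 2.14, SE 0.31, adjusted p = 0.0030, limma). Ndufb10, of the ND4 region, measured 241, 96.3 and 92.4 FPKM in the sham samples and 629, 513 and 531 FPKM in the MI/RI samples (log2 fold change 2.11, SE 0.37, adjusted p = 0.0043, limma). Ndufb5 measured 152, 71.3 and 80.5 FPKM in the sham samples and 314, 256 and 233 FPKM in the MI/RI samples (log2 fold change 1.47, SE 0.32, adjusted p = 0.0085, limma). These 3 subunits had no overlap between the groups, and Ndufb8 and Ndufb10 were chosen for mention after their values were seen. The study followed the protein of Ndufb5, like that of Ndufs1, in cultured cardiomyocytes after hypoxia and reoxygenation and not in this tissue.

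Ndufb2 and Ndufa3 were not called, and Ndufc1 was near the threshold. Ndufb2 measured 62.2, 24.1 and 23.1 FPKM in the sham samples and 56.4, 59.3 and 64.0 FPKM in the MI/RI samples (log2 fold change 0.87, adjusted p = 0.0907, limma), with sham replicate 1 inside the range of the MI/RI samples. With the replicate number as a block, the adjusted p of Ndufb2 was 0.0455, which made 30 subunits called, against 28.2% of all genes tested in that fit. In TPM both Ndufb2 (adjusted p = 0.0436, limma) and Ndufa3 (adjusted p = 0.0398, limma) passed. Ndufa3 was close to the filter, at 0.552, 0.917 and 0.782 FPKM in the sham samples and 1.03, 1.39 and 1.47 FPKM in the MI/RI samples (log2 fold change 0.73, adjusted p = 0.0822, limma), its groups did not overlap, and its log2 fold change was 0.39 with a pseudocount of 1. Ndufc1 was called with overlapping groups, at 35.5, 10.8 and 13.6 FPKM in the sham samples and 43.7, 45.4 and 31.8 FPKM in the MI/RI samples (log2 fold change 1.19, SE 0.40, adjusted p = 0.0467, limma). The remaining members of this arm (Ndufa8, Ndufa11, Ndufb3, Ndufb4, Ndufb11, Ndufc2 and Ndufs5) all passed, with log2 fold changes from 1.41 to 1.77.

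Ndufab1 and Ndufa4 belong to no single arm. Ndufab1, the mitochondrial acyl carrier protein, sits in both arms and also serves lipoic acid and iron-sulfur cluster synthesis. It measured 72.5, 26.6 and 27.4 FPKM in the sham samples and 181, 135 and 126 FPKM in the MI/RI samples (log2 fold change 1.95, SE 0.38, adjusted p = 0.0063, limma). Ndufa4, first described in complex I and now assigned to complex IV, measured 165, 48.6 and 56.2 FPKM in the sham samples and 221, 214 and 167 FPKM in the MI/RI samples (log2 fold change 1.38, SE 0.42, adjusted p = 0.0319, limma). The groups of both genes were separate, although the highest sham value of Ndufa4 lay just under its lowest MI/RI value. The paralog Ndufa4l2, known as a gene induced by hypoxia, measured 11.7, 16.1 and 8.18 FPKM in the sham samples and 19.7, 18.6 and 17.0 FPKM in the MI/RI samples, with a log2 fold change of 0.66 that did not pass (adjusted p = 0.0864, limma), although it passed with the block (adjusted p = 0.0453) and in TPM (adjusted p = 0.0475).

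The arms were then set against each other within each sample, where the scaling of the library cancels. The mean log2 level of the N module subunits minus that of the membrane arm subunits was -0.30, -0.37 and -0.36 in the sham samples and -0.08, -0.29 and -0.34 in the MI/RI samples. For the Q module minus the membrane arm it was 0.02, 0.02 and 0.03 in the sham samples and 0.14, -0.09 and 0.01 in the MI/RI samples. For the N minus the Q module it was -0.32, -0.39 and -0.39 in the sham samples and -0.22, -0.20 and -0.35 in the MI/RI samples. In each of the 3 contrasts the sham and MI/RI values overlapped when read without pairing, and MI/RI replicate 1 gave the highest value of N and of Q against the membrane arm. Between samples of the same number, MI/RI minus sham, the N against membrane value was higher by 0.22, 0.07 and 0.02 and the N against Q value by 0.10, 0.18 and 0.04, while the Q against membrane value differed by 0.12, -0.11 and -0.02, and these differences were not tested. The 6 core subunits tested were all higher, with a median log2 fold change of 1.89, against 25.5% of all genes tested. Of the 28 accessory subunits, Ndufab1 and Ndufa4 included, 23 were higher, with a median of 1.53. These counts and medians are of the deposited scaling. The core minus the accessory mean log2 level, taken without Ndufab1 and Ndufa4, was -0.22, 0.04 and -0.07 in the sham samples. It was 0.48, 0.03 and 0.06 in the MI/RI samples, so the groups overlapped here as well.

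Single subunits were also compared with the mean log2 level of the subunits in the same sample, a scaling chosen after the data were seen, under which 0.832% of all genes tested were higher and 46.8% lower. Ndufb6 was higher relative to the other subunits (log2 difference 1.30, SE 0.42, adjusted p = 0.0094, limma over all genes tested). Ndufa5 (-1.06, SE 0.37, adjusted p = 0.0144) and Ndufa1 (-1.08, SE 0.43, adjusted p = 0.0327) were lower relative to them by the same limma fit. With the block these adjusted p were 0.0131, 0.0084 and 0.0439. Leaving out sham replicate 3 or any 1 MI/RI sample left 0 such subunits in either direction at an adjusted p under 0.05, as did limma without the trend. Without sham replicate 2, Ndufb6 and Ndufa5 passed and Ndufa1 did not (adjusted p = 0.0659, limma). Leaving out sham replicate 1 gave 2 above the mean (Ndufb6 and Ndufb10) and 5 below it (Ndufa1, Ndufa3, Ndufa5, Ndufa7 and Ndufb2).

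The share of each subunit in the summed FPKM of the 35 genes was computed as well, since a share within a sample is free of the scaling of the library. Ndufb6 made up 0.553%, 0.482% and 0.457% of the sum in the sham samples and 1.56%, 0.973% and 1.07% in the MI/RI samples. The share of Ndufa5 was 4.59%, 4.57% and 5.66% in the sham samples and 1.88%, 2.50% and 2.43% in the MI/RI samples. That of Ndufa1 was 1.02%, 0.806% and 0.852% in the sham samples and 0.269%, 0.493% and 0.496% in the MI/RI samples. Sham replicate 1 was close to the other sham samples in all 3 shares, unlike in the levels, and the groups did not overlap (exact permutation test, two-sided, p = 0.1 for each, the smallest that 3 against 3 samples allow).

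In all, 6 subunits had a higher share without overlap of the groups and 4 a lower share, while 24 overlapped. Relative to the same sum, 1.75% of all genes tested were higher without overlap and 53.3% lower. The other higher shares were those of Ndufb8 (4.23% ± 0.976 for sham and 5.88% ± 0.302 for MI/RI, SD, n = 3 each), Ndufb10 (4.31% ± 0.0998 and 5.98% ± 0.125), Ndufa12 (4.29% ± 0.454 and 5.62% ± 0.779), Ndufab1 (1.25% ± 0.0294 and 1.57% ± 0.143) and Ndufs8 (1.40% ± 0.167 and 1.74% ± 0.139). The groups of Ndufs8 were nearly in touch, with sham replicate 2 just below MI/RI replicate 2. The other lower shares were those of Ndufb2 (1.09% ± 0.0222 and 0.649% ± 0.101) and Ndufa7 (1.75% ± 0.326 and 1.24% ± 0.0391). Ndufb7 made up the largest share in both groups, with 12.6% ± 2.86 in the sham and 11.4% ± 2.17 in the MI/RI samples. A change of share shows unequal change among the subunits and not the direction of any 1 gene.

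**Figure D3:**
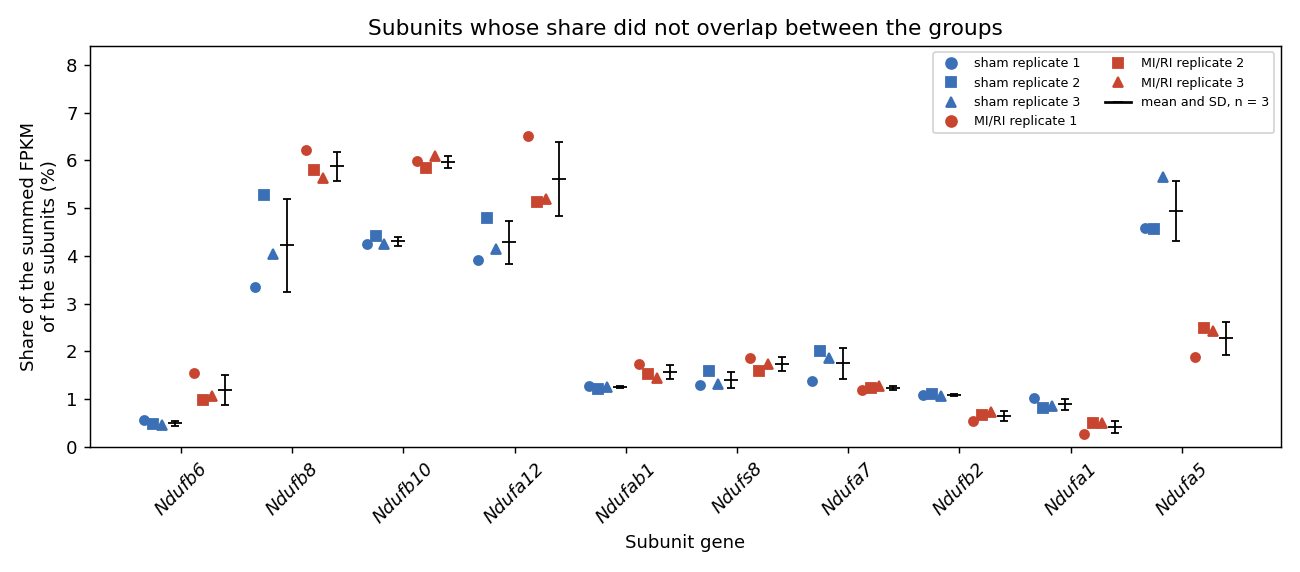
Share of the summed FPKM of the subunit genes (vertical axis, %) taken by the 10 subunits whose groups did not overlap, with 1 point per sample (blue, sham; red, MI/RI) and the mean and SD of each group (black). The shares of 6 subunits are higher and those of 4 are lower in the MI/RI samples, with the widest gap for Ndufa5, from 4.94% ± 0.624 to 2.27% ± 0.339 (SD, n = 3 each).

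The subunits were also set beside the other genes of the complex. Assembly factors build the enzyme and are not part of it. Of the 17 listed, 15 were tested, of which 11 were higher and 0 lower, against 25.5% and 7.36% of all genes tested, with a median log2 fold change of 1.12 in the deposited scaling and of -1.18 after centring on the cardiomyocyte markers, and Ndufaf8 and Coa1 are not analysed here. Foxred1 was the only assembly factor with a fold change below 0, so none was lower at an unadjusted p under 0.05 either. Ecsit, part of the assembly complex for the ND2 region, had the largest change and measured 36.6, 15.2 and 12.4 FPKM in the sham samples and 108, 65.9 and 61.5 FPKM in the MI/RI samples (log2 fold change 1.99, SE 0.40, adjusted p = 0.0070, limma). Foxred1, an assembly factor that resembles oxidoreductases, had the smallest change, with 3.69, 5.38 and 2.89 FPKM in the sham samples and 5.54, 2.87 and 3.36 FPKM in the MI/RI samples (log2 fold change -0.03, adjusted p = 0.947, limma). The count of 11 assembly factors fell to 6 without sham replicate 2, to 4 without sham replicate 3 and to 7 without MI/RI replicate 1. The share of all genes called in these fits is not given.

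The 7 subunits encoded by mitochondrial DNA had the opposite sign in the deposited scaling, with a median log2 fold change of -0.60. Centred on the cardiomyocyte markers, their median was -2.89 and that of the nuclear subunits -0.72, so both were below 0. As deposited, 0 of the 7 were higher and 2 lower, against 25.5% and 7.36% of all genes tested. The lower ones were Mt-nd3 (-1.03, adjusted p = 0.0241, limma) and Mt-nd6 (adjusted p = 0.0373, limma), and the count of lower calls ranged from 0 to 4 when 1 sample was left out. At an unadjusted p under 0.05 none was higher, since every fold change was below 0. Their summed level was 168666, 183478 and 182033 FPKM in the sham samples and 96745, 131822 and 138979 FPKM in the MI/RI samples. The 35 nuclear genes were also taken as a share of their summed FPKM plus that of these 7 subunits. This share was 3.25%, 1.17% and 1.18% in the sham samples and 9.78%, 6.25% and 5.90% in the MI/RI samples. It counts Ndufa4 and lacks Ndufb1, Ndufb9 and Ndufa10. The groups did not overlap in this share, which does not depend on the scaling of the library, and sham replicate 1 again lay between the other sham samples and the MI/RI samples.

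Other measures also moved with the subunits, among them the level of cardiomyocyte mRNA. The summed assembly factors were another, at 91.7, 54.7 and 49.3 FPKM in the sham and 251, 160 and 145 FPKM in the MI/RI samples. Of the 7 cardiomyocyte markers tested, 6 were higher in the deposited scaling, against 25.5% of all genes tested. Their median log2 fold change was 2.28, with a range from 0.82 for Ryr2 to 3.79 for Actc1, and Pln is not analysed here. For every 100 FPKM of these markers there were 49.9, 55.6 and 62.7 FPKM of subunit mRNA in the sham samples and 31.2, 36.2 and 37.3 FPKM in the MI/RI samples. The means were 56.1 ± 6.42 for sham and 34.9 ± 3.29 for MI/RI (SD, n = 3 each), without overlap. Relative to the summed level of these markers, the summed subunit level was thus lower in the MI/RI samples. This does not hold against every single marker, since the log2 fold change of Ryr2 (0.82) was below the subunit median (1.57). The part of the cardiomyocyte mRNA level in the result was not tested.

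**Figure D4:**
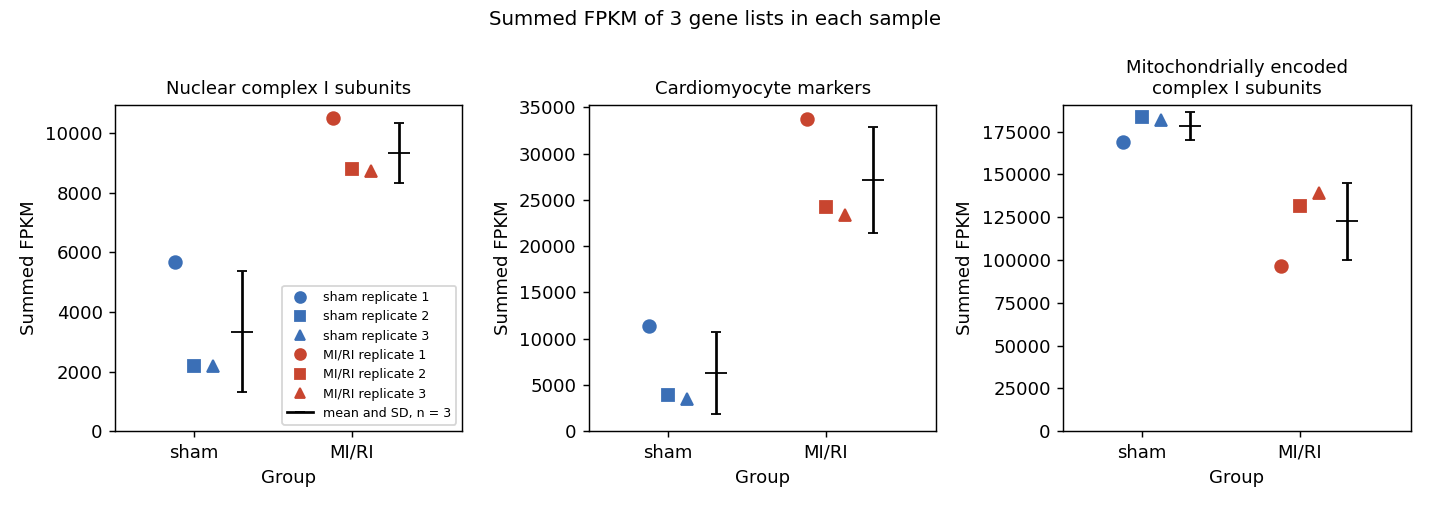
Summed FPKM (vertical axis from 0) of the 35 subunit genes, of the cardiomyocyte markers and of the mitochondrially encoded complex I subunits, with 1 point per sample (blue, sham; red, MI/RI) and the mean and SD of each group (black). The first and second sums are highest in the MI/RI samples and intermediate in sham replicate 1, and the third is lowest in the MI/RI samples.

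Markers of other cells moved less or with a different order. Against the 25.5% of all genes tested that were higher, 1 of 6 fibroblast markers was higher, with a median log2 fold change of 0.42 and a summed level of 416 to 574 FPKM in the sham and 590 to 653 FPKM in the MI/RI samples. Of 6 endothelial markers, 0 were called in either direction by limma (1 higher and 1 lower at an unadjusted p under 0.05), with a median of 0.01 and summed levels of 134 to 169 FPKM and 140 to 165 FPKM. Of 5 neutrophil and monocyte markers tested of 6 listed, 3 were higher, with a median of 1.60 and summed levels of 51.3 to 66.9 FPKM and 78.1 to 144 FPKM. Of 4 red blood cell markers, only Hba-a2 was analysed, at 1061 to 1154 FPKM in the sham and 583 to 1672 FPKM in the MI/RI samples. None of the defining markers analysed was at 0 in all samples. The sham replicate 1 value was not the highest sham value for any fibroblast or endothelial marker, and the part of these cells in the subunit levels was not tested.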

How the data were processed

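Total RNA of the myocardium was sequenced with a stranded kit in 3 sham and 3 MI/RI samples. The authors deposited 1 table of FPKM values with 30452 rows, of which 7092 have no symbol. The submitters' processing notes name STAR and HTSeq, and their versions, the genome build, the annotation and the total used for scaling are not given in the sources used here. Depth is unknown, since FPKM carry no counts.

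Columns were matched to samples by name, and rows with 1 symbol were summed (Ndufb2 and Ndufs5 have more than 1 row). Log2(FPKM + 0.1) of the 10942 genes with a mean of at least 0.5 FPKM was fitted with limma 3.58.1 in R 4.3.3 (intensity trend, Benjamini-Hochberg, threshold 0.05). Standard errors are moderated. Single values were given a two-sided exact permutation p, which cannot be smaller than 0.1. The labels number the samples without tying each to a rat, so p-values measure the spread between these samples. Deviations of samples with the same replicate number correlated weakly (0.20, 0.12 and 0.12). For number 3, sham replicate 3 had a higher correlation with an MI/RI sample of another number. The fit was repeated with the replicate number as a block, as an alternative.

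The members, arms, lists and motifs were chosen with earlier results of these data known. Subunits were assigned to the N, Q and membrane arms from textbook knowledge, and Ndufab1 and Ndufa4 were given no arm. Genes named with values are the nuclear core subunits, the accessory subunits with the largest and smallest fold change of each arm, those that missed the test or the filter, the 3 with the highest and the 3 with the lowest level, Ndufb5, Ndufab1, Ndufa4 and its paralog, and the extremes of the other lists. Ndufs6 and Ndufa3 were named for their low levels, and 1 gene covered by this rule is not reported here. Promoters come from RefSeq (GRCr8) and were matched by symbol. On simulated data with 10942 genes, 157 of 200 genes given a log2 change of 2 were recovered (78.5%), with 6 false calls among 163. The simulated spread was independent for each gene and sample. It held no shift shared by many genes of 1 sample, so the false calls in the real data may differ.

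Alternatives were pseudocounts of 1 and 0.01, no filter or a mean of 5 FPKM, TPM, rescaling without mitochondrial mRNAs, centring on the median or on cardiomyocyte markers, quantile normalization, no trend, the highest row of each symbol, other arm assignments for Ndufa6 and Ndufa9, the block, and leaving out each sample. Centring on the subunit mean, and leaving out replicate 1 of both groups, were chosen after the data were seen.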

Additional observations from a re-analysis of the deposited data

How the results depend on the processing

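Depth is unknown and each group has 3 samples of bulk tissue, so low genes such as Ndufa3 and Ndufs6 are least precise. Where 1 sample was left out, the spread was estimated from the remaining samples and taken as equal in both groups. The fit with the replicate block called 30 subunits higher, Ndufb2 being the added one, and changed no other subunit call, while Ndufa4l2 passed and 3 mitochondrially encoded subunits were lower. Pseudocounts of 1 and 0.01, the highest row of each symbol and the other assignment of Ndufa6 and Ndufa9 left all these counts within 1.5 times and the medians within the spread of replicates, although a pseudocount of 1 moved Ndufs6 to 0.71 and Ndufa3 to 0.39, and under that assignment the N module median (1.71) was above that of the Q module (1.58). The causes of the changes below were not tested, other than that each centring shifts all genes of a sample by 1 amount. For the settings below the share of all genes called is not given, so their counts cannot be read as particular to the listed genes.

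With 1 sample left out, 17 to 33 subunits were higher (17 without sham replicate 2, 33 without sham replicate 1), and their median ranged from 1.36 to 2.10, that of the N module from 1.42 to 2.17, of the Q module from 1.55 to 2.23 and of the membrane arm from 1.27 to 1.98. Assembly factors called higher ranged from 4 to 11, mitochondrially encoded subunits called lower from 0 to 4, subunits above the subunit mean from 0 to 2 and below it from 0 to 5. Foxred1 ranged from -0.30 to 0.20, turning positive without sham replicate 2 (0.20), MI/RI replicate 2 (0.16) or MI/RI replicate 3 (0.05), and it was 0.16 in TPM, where 31 subunits were higher. Without replicate 1 of both groups, 6 mitochondrially encoded subunits were lower. Without the trend, 0 subunits were above and 0 below the subunit mean. Without a filter, 6 assembly factors were higher and 0 mitochondrially encoded subunits lower, and at a mean of 5 FPKM 6 assembly factors were higher, with a median of 1.56.

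Rescaled over genes other than mitochondrial mRNAs, 19 subunits (median 0.79; N 0.86, Q 1.04, membrane 0.72) and 3 assembly factors (median 0.42) were higher and 6 mitochondrially encoded subunits (median -1.38) lower. The median of all genes was then -0.46, Ndufa1 was -0.29, Ndufa5 -0.28 and Ndufa4l2 -0.12. After quantile normalization 12 subunits (median 0.67; N 0.78, Q 0.81, membrane 0.56) and 6 assembly factors were higher and 0 mitochondrially encoded subunits (median -0.12) lower. The median of all genes was -0.022, Ndufa1 was -0.34, Ndufa5 -0.49, Ndufb2 -0.044 and Ndufa4l2 -0.057. Centred on the median, 0 mitochondrially encoded subunits were lower (median -0.85).

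Centred on the cardiomyocyte markers, 0 subunits were higher and 10 lower (median -0.72; N -0.65, Q -0.47, membrane -0.80), 0 assembly factors were higher and 7 lower (median -1.18), and 7 mitochondrially encoded subunits were lower (median -2.89), with -2.01 for all genes. In the N module the log2 fold changes were -0.35 for Ndufs1, -0.38 for Ndufv1, -0.73 for Ndufv2, -0.56 for Ndufv3, -0.58 for Ndufa2, -0.72 for Ndufa6, -1.14 for Ndufa7, -0.28 for Ndufa12, -0.88 for Ndufs4 and -0.95 for Ndufs6. In the Q module they were -0.43 for Ndufs3, -0.79 for Ndufs7, -0.35 for Ndufs8, -1.79 for Ndufa5 and -0.47 for Ndufa9. In the membrane arm they were -1.80 for Ndufa1, -1.57 for Ndufa3, -0.54 for Ndufa8, -0.53 for Ndufa11, -0.56 for Ndufa13, -1.42 for Ndufb2, -0.88 for Ndufb3, -0.89 for Ndufb4, -0.82 for Ndufb5, -0.81 for Ndufb7, -0.16 for Ndufb8, -0.19 for Ndufb10, -0.80 for Ndufb11, -1.11 for Ndufc1, -0.73 for Ndufc2 and -0.71 for Ndufs5, and Ndufb6 alone stayed above 0 (0.57). Ndufab1 was -0.35, Ndufa4 -0.92, Ndufa4l2 -1.63 and Ecsit -0.30.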

Other observations

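Across the 34 subunits tested, the log2 fold change had a Spearman correlation of 0.14 with the mean sham FPKM of the gene and of 0.67 with the ratio of MI/RI replicate 1 to the mean of MI/RI replicates 2 and 3. Each measure shares samples with the fold change, and subunit genes are not independent replicates, so these values are a description of these libraries.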
